A study of Mus musculus with 12 samples.

Results

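Kidney cortex of mice that had lived on an ethanol diet was compared with that of pair-fed mice, with no endotoxin given to either group. The genes described are those annotated as protein coding that reached 1 FPKM (fragments per kilobase of a transcript, corrected for library depth) in at least 3 of the 6 libraries, 11044 of the 47719 genes in the table and of its 21618 protein-coding genes. The series holds 12 libraries in 4 groups of 3, of which the 6 libraries injected with saline carry this comparison. All mice were male C57BL6/J, 8 weeks old per the labels. The EtOH group received a liquid Lieber-DeCarli diet with free access for 6 weeks, its ethanol content going from 0 to 1 and 2% for 2 days each, then 4% for 1 week, 5% for 1 week and 6% for 3 weeks. The PF group was pair-fed the same diet with maltose-dextrin replacing the ethanol calories. Both received saline by intraperitoneal injection 4 hours before the tissue was taken. The EtOH_LPS and PF_LPS groups had the same diets but 10 mg/kg lipopolysaccharide, a bacterial outer-membrane component, and serve here as separate libraries in which the diets were compared again. The source is labelled whole kidney and the region cortex. Replicates are numbered but not described as separate mice, so the tests rest on how far these libraries differ among themselves, which may be technical.

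The renal cortex consists largely of proximal tubule, whose cells live on fatty acid oxidation and reabsorb most of the filtered solutes, together with glomeruli and the distal nephron. In male mice the proximal tubule also carries a set of androgen-dependent transcripts. Ethanol is oxidised to acetaldehyde by alcohol dehydrogenase, by the microsomal enzyme CYP2E1 and, in part, by catalase, and aldehyde dehydrogenases convert acetaldehyde to acetate.

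Markers of cortex were high. Kap, the kidney androgen-regulated protein of the proximal tubule, was the most abundant member, with a mean of 54240 FPKM over the 6 libraries, and the proximal endocytic receptor Lrp2 was at 545. Depth is given only in relative terms, because FPKM carry no totals. From the steps of 1 fragment between low values, the other PF libraries had 0.987 and 1.2 times the depth of PF library 1 and the EtOH libraries 0.929, 0.72 and 0.942 times, a mode that held 37.5 to 44.6% of the genes compared. Protein-coding genes took 34.99 to 41.97% of the summed FPKM. On the first principal component PF libraries 1 and 3 lay at opposite ends, and on the second EtOH library 2 stood apart. All 3 PF libraries were negative and all 3 EtOH libraries positive on the second component, which held 29.4% of the variance against 32.5% for the first. In bulk tissue, fewer cells of a type and less RNA per cell cannot be told apart.

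**Figure D1:**
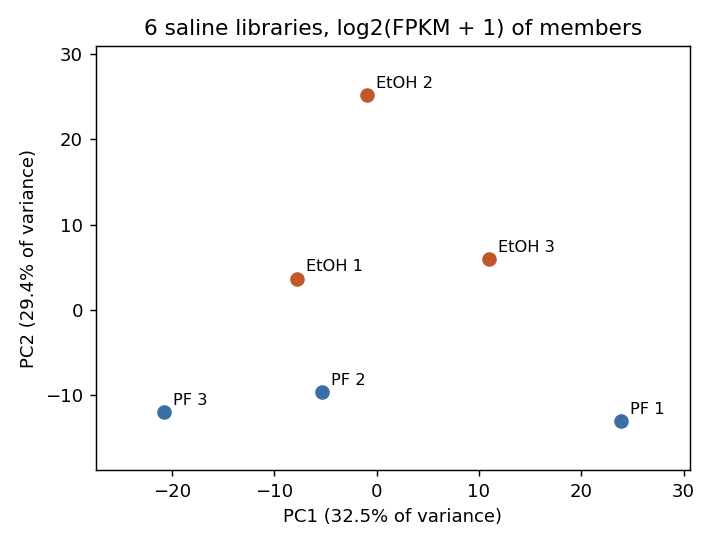
First and second principal components of log2(FPKM + 1) over the 11044 members, 1 point per library, PF blue and EtOH orange. The second axis has the PF libraries at -13.11 to -9.71 and the EtOH libraries at 3.64 to 25.23, while PF 1, at 23.89, and PF 3, at -20.75, lie at opposite ends of the first.

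Few genes differed beyond the spread between libraries. In limma on log2(FPKM + 1) over all 12 libraries, 0 members (0.0%) were called higher and 1 (0.00905%) lower at an adjusted p under 0.05. Without adjustment, 162 members (1.47%) had p under 0.05 and a higher level with ethanol and 232 (2.1%) a lower one, 394 (3.57%) in all. Over all 14109 genes tested, of any biotype, 4 (0.0284%) passed after adjustment, 3 of which are not protein coding and were listed at 0 throughout 1 of the diets. The 3 EtOH libraries all lay above the 3 PF libraries in 682 members (6.18%) and all below in 782 (7.08%). With the libraries scaled to equal total FPKM those counts became 1334 and 284, and with equal total over protein-coding genes 1539 and 396, and these scalings moved the median of all members from -0.002 to 0.083 and 0.097 on the log2 scale. The unadjusted counts then became 239 higher and 99 lower, and 330 and 120. The unscaled shares of 6.18% and 7.08% are those against which the counts without overlap of each list stand. The fold changes were small: 77.5% of members lay within 0.25 of 0 on the log2 scale, 14 were at 1 or more and 39 at -1 or less, together 0.48%. An exact permutation test of 3 against 3 libraries cannot go below p = 0.1 and is not given for single genes. Every fold change here is a log2 difference of FPKM + 1, with its standard error, a scale that shrinks the change of weakly expressed genes.

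Slc6a15, a sodium-dependent transporter of neutral amino acids, was the gene that passed. It had 16, 14.5 and 13.7 FPKM in the PF libraries and 4.5, 4.54 and 5.24 in the EtOH libraries. No EtOH library came near the PF range, and the 3 values within each group lay close together. The log2 fold change was -1.45 ± 0.20 (limma adjusted p = 0.0477), and in the separate LPS libraries -1.29 ± 0.20 (limma adjusted p = 0.0488). The call was narrow. In limma it was lost when any 1 library was left out, with adjusted p-values of 0.17 to 0.255 and log2 fold changes of -1.51 to -1.39. The gene lies on chromosome 10, 103367783 to 103419377 (GRCm38).

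A fit of the 6 saline libraries alone, over the members alone, called 35 genes (0.317%), 28 lower (0.254%) and 7 higher (0.0634%). Of these, 7 lower genes (Synpr, Gm17416, Cntnap5a, Rnf180, Phf21b, Prc1 and Cdk1) and 2 higher genes (BC049352 and 1110017D15Rik) had reached the 1 FPKM minimum only in the diet group where they are high. Such genes differ in part by the choice of members. Without them 21 lower and 5 higher genes are left. Among all members 25 reached the minimum in PF only and 17 in EtOH only, and without those 665 (6.04%) were higher and 757 (6.88%) lower without overlap. The median spread within groups was 0.194 on the log2 scale in the saline groups and 0.315 in the LPS groups, and the fit of 12 libraries uses 1 common estimate for both. For the 35 genes, the standard errors and adjusted p-values of saline values below are those of this limma fit, unless another fit is named. In the limma fit of 12 libraries the adjusted p-values were 0.0477 for Slc6a15 and 0.172 or more for the others.

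Lpl, lipoprotein lipase, which frees fatty acids from circulating triglyceride, had 304, 317 and 227 FPKM with pair-feeding and 83.9, 87.2 and 71.1 with ethanol. The ranges were far apart. Its log2 fold change was -1.79 ± 0.17 (limma adjusted p = 0.0026). Angptl4, a secreted inhibitor of that lipase and a target of fatty acid-sensing receptors, had 16.6, 20.5 and 12.8 FPKM in PF and 4.82, 5.76 and 6.07 in EtOH, and a log2 fold change of -1.41 ± 0.18 (limma adjusted p = 0.0159). Agps, a peroxisomal enzyme of ether lipid synthesis, had 321, 248 and 229 FPKM in the PF libraries and 129, 122 and 137 in the EtOH libraries. Of the 11 adipose markers listed, 3 stayed below 1 FPKM in every library, and PF library 2 had the highest Adipoq (4.62 against at most 0.163 elsewhere) and Cfd (6.93 against at most 0.456). The list of lipid storage and lipoprotein genes, which holds Lpl and Angptl4, had 3 of 27 members higher and 5 lower without overlap and a median of -0.053. Without PF library 1 the list had 3 and 11, against 13.2% and 15% of all members, and a median of -0.264. Without PF library 2 the log2 fold changes in the fit of 12 libraries were -1.70 ± 0.41 for Lpl and -1.25 ± 0.68 for Angptl4. With all libraries that fit gave -1.79 ± 0.35 and -1.41 ± 0.58.

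The lower genes also included enzymes of steroids, fatty acids or foreign compounds. Cyp4a12a, an omega-hydroxylase of arachidonic acid that is high in male kidney, had 50.6, 24.6 and 37.6 FPKM in PF and 7.73, 7.58 and 6.66 in EtOH (log2 fold change -2.16 ± 0.23; limma adjusted p = 0.00525). Its neighbour Cyp4a12b had 3.09, 2.55 and 2.88 FPKM with pair-feeding and 1.74, 1.5 and 1.28 with ethanol, and because both are near-identical copies, how fragments were divided between them is uncertain. Cyp2a5, a hydroxylase of coumarin and nicotine, had 126, 156 and 191 FPKM in PF and 49.9, 78.9 and 53.5 in EtOH (log2 fold change -1.37 ± 0.21; limma adjusted p = 0.0369), with the same caution for its copy Cyp2a4. Srd5a2, which reduces testosterone to dihydrotestosterone, had 7.81, 6.99 and 7.02 FPKM in the PF libraries and 3.39, 1.93 and 1.99 in the EtOH libraries (log2 fold change -1.29 ± 0.18; limma adjusted p = 0.0236). Hsd17b11, a short-chain dehydrogenase found on lipid droplets, had 121, 116 and 102 FPKM in PF and 63.7, 59.4 and 54.3 in EtOH, and the carboxylesterase Ces2b 6.97, 6.68 and 5.95 FPKM with pair-feeding and 2.72, 2.22 and 1.89 with ethanol. In all of these the PF and EtOH ranges were separate.

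Enzymes of peptides, amino acids and thiols were also among the lower genes. Cndp2, a cytosolic dipeptidase, had 539.9, 585 and 522 FPKM in PF and 242, 167 and 159 in EtOH, a log2 fold change of -1.56 ± 0.18 (limma adjusted p = 0.00829). Cpe, a carboxypeptidase that trims prohormones, had 31.1, 43.4 and 48.1 FPKM in the PF libraries and 13.4, 13.9 and 17.8 in the EtOH libraries (log2 fold change -1.37 ± 0.19; limma adjusted p = 0.0233). Gclc, the catalytic subunit of the rate-limiting step of glutathione synthesis, had 89.3, 134 and 93.7 FPKM in PF and 39, 42.3 and 39.99 in EtOH (log2 fold change -1.34 ± 0.17; limma adjusted p = 0.0159). Odc1, which starts polyamine synthesis, had 508, 494 and 661 FPKM with pair-feeding and 283, 230.3 and 253 with ethanol. Keg1, a glycine N-acyltransferase-like protein of kidney, had 1309.8, 1700.2 and 1575 FPKM in PF and 710.3, 862 and 713 in EtOH. Each of these 5 was lower in all 3 EtOH libraries than in any PF library.

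Some lower genes were nearly absent with ethanol, while Ctxn3 and Pzp, also given here, were not. Synpr, a synaptic vesicle membrane protein, had 3.63, 3.64 and 4.34 FPKM in the PF libraries and 0.0725, 0.0268 and 0 in the EtOH libraries, with 1 EtOH library listed at 0 (log2 fold change -2.23 ± 0.13; limma adjusted p = 0.000126). Cntnap5a, a relative of the neurexins, had 1.67, 1.15 and 1.62 FPKM in PF and 0.233, 0.107 and 0.121 in EtOH, and the ubiquitin ligase Rnf180 2.38, 1.2 and 1.34 FPKM with pair-feeding and 0.334, 0.144 and 0.137 with ethanol. The predicted gene Gm17416 had 1.32, 4.02 and 5.52 FPKM in the PF libraries and was listed at 0 in all EtOH libraries. Ctxn3, a small membrane protein, had 10.7, 10.0 and 7.9 FPKM in PF and 2.41, 2.12 and 2.28 in EtOH (log2 fold change -1.68 ± 0.15; limma adjusted p = 0.0026). Pzp, a broad-range protease inhibitor of the alpha-2-macroglobulin family, had 111, 80.8 and 101 FPKM in the PF libraries and 34.6, 20.8 and 25.7 in the EtOH libraries (log2 fold change -1.83 ± 0.20; limma adjusted p = 0.00648).

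The remaining lower genes were spread over functions. Car4, the membrane-bound carbonic anhydrase that serves bicarbonate reabsorption in the proximal tubule, had 119.9, 121 and 106 FPKM in PF and 64.7, 66.3 and 67.9 in EtOH. B4galt5, which makes lactosylceramide, had 30.1, 27.5 and 37.1 FPKM with pair-feeding and 16, 14.9 and 11.4 with ethanol, and the epithelial chemokine Ccl28 10.1, 7.92 and 11.8 FPKM in PF and 4.57, 4.48 and 4.66 in EtOH. Cdk1, the mitotic kinase, had 2.29, 1.95 and 1.95 FPKM in the PF libraries and 0.582, 0.444 and 0.919 in the EtOH libraries, and Prc1, a protein of the mitotic spindle midzone, 1.54, 1.59 and 2.53 FPKM in PF and 0.448, 0.503 and 0.545 in EtOH. The sorting nexin Snx31, Nxpe3 and the PHD-finger protein Phf21b had log2 fold changes of -0.99 ± 0.15, -0.82 ± 0.14 and -0.89 ± 0.14, with limma adjusted p-values of 0.0369, 0.0459 and 0.0369.

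The 7 higher genes included a pair of helix-loop-helix inhibitors of differentiation that respond to bone morphogenetic proteins. Id1 had 10.5, 6.33 and 7.74 FPKM with pair-feeding and 17.1, 24.6 and 20.1 with ethanol (log2 fold change 1.24 ± 0.20; limma adjusted p = 0.0369). Id3 had 7.61, 5.65 and 9.63 FPKM in PF and 17.5, 19 and 15.9 in EtOH (log2 fold change 1.12 ± 0.18; limma adjusted p = 0.0405). Gc, the vitamin D-binding protein, had 11.8, 11.9 and 12.5 FPKM in the PF libraries and 24.3, 24.9 and 37.9 in the EtOH libraries (log2 fold change 1.17 ± 0.18; limma adjusted p = 0.0369). Kynu, kynureninase of tryptophan breakdown, had 2.72, 3.37 and 2.48 FPKM in PF and 7.43, 7.31 and 14.4 in EtOH (log2 fold change 1.42 ± 0.23; limma adjusted p = 0.0441). For Gc and Kynu, EtOH library 3 was the highest of all. Cyp2d9, a steroid hydroxylase of a large gene cluster whose copies share sequence, had 37.5, 31 and 29.8 FPKM with pair-feeding and 68.6, 68.7 and 56.9 with ethanol. The uncharacterised BC049352 and 1110017D15Rik had 0.422, 0.267 and 0.679 FPKM in PF and 1.65, 1.72 and 1.61 in EtOH and 0.276, 0.141 and 0 FPKM in the PF libraries and 1.1, 1.23 and 1.01 in the EtOH libraries, respectively.

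**Figure D2:**
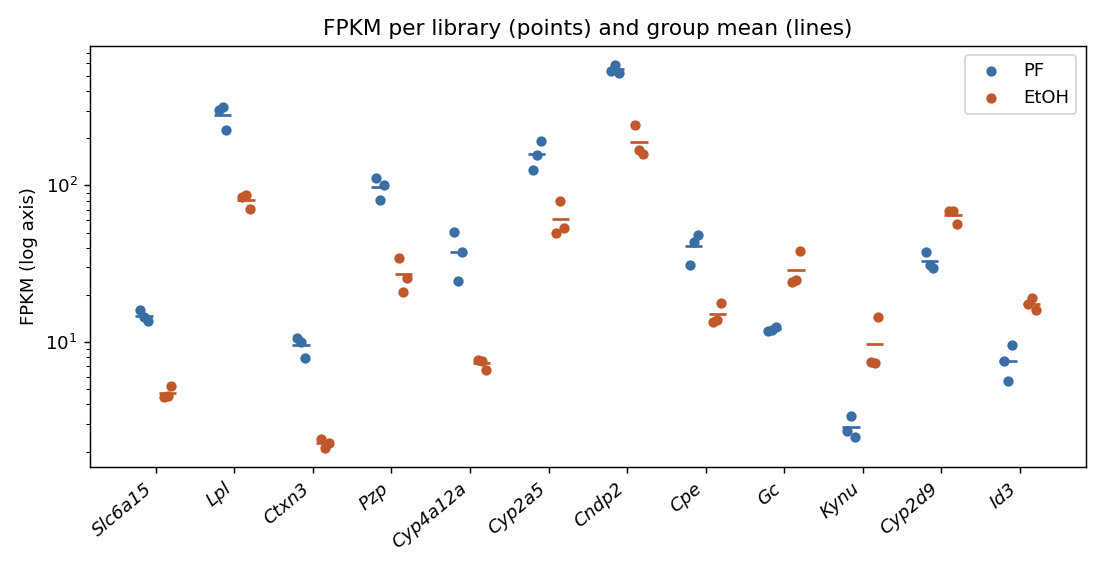
FPKM (log axis) of 12 genes called in the fit of the 6 saline libraries, 1 point per library with a line at the group mean, PF blue and EtOH orange. The first 8 genes have all EtOH points below the PF points and the last 4 all above, for Slc6a15 4.5 to 5.24 against 13.7 to 16.

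How far these calls depended on single libraries differed between genes. Lpl, Slc6a15, Synpr and Ctxn3 passed in all 12 alternative fits of the 6 libraries, including the 6 that left out 1 library each. Ccl28, Car4 and Kynu passed in none of those 6. Of the genes named here, Synpr had reached the 1 FPKM minimum in PF only. With EtOH library 1, 2 or 3 left out, 10, 5 or 4 genes were called, of which 9, 4 and 4 are among the 35. With PF library 1, 2 or 3 left out, 43, 12 or 56 were called, of which 28, 10 and 29 are among the 35. All 35 kept their direction in the 12 fits. Their PF and EtOH libraries did not overlap, so leaving out 1 library could not turn it. Only a rescaling could. With equal total FPKM 6 genes were called and with quantile normalization 16.

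The 6 LPS libraries, in which the same diets were compared, gave values that this choice of genes did not use. Signs and overlap there rest on the LPS libraries alone. The p-values come from the fit of 12 libraries, whose error estimate also uses the saline libraries that chose the genes. They are therefore not free of that choice. Of the 28 lower genes, 26 were lower in the LPS libraries too, 20 without overlap (5.46% of all members were). In limma 20 were lower with an unadjusted p under 0.05 (5.1% of members). Of the 7 higher genes, 6 were higher there, 4 without overlap (6.03% of all members) and 5 with an unadjusted p under 0.05 (5.7%). These counts include the 7 lower and 2 higher genes that reached the minimum only in the diet group where they are high. Of those, Synpr, Rnf180, Cntnap5a, Prc1, Cdk1 and BC049352 were also without overlap with LPS, while Gm17416, Phf21b and 1110017D15Rik overlapped. After adjustment over all genes tested, 3 of the 28 passed in limma, Slc6a15, Cyp2a5 and Rnf180, and 0 of the 7. Of all members 0.0453% and 0.0181% passed in those directions. Rnf180 had reached the minimum in PF only. Cyp2a5 had a log2 fold change of -1.62 ± 0.23 (limma adjusted p = 0.0442) and Rnf180 of -1.18 ± 0.19 (limma adjusted p = 0.0488). The exceptions were Angptl4, at 0.92 ± 0.58, and Phf21b, at 0.22 ± 0.34, which were not lower, and 1110017D15Rik, at -0.15 ± 0.17, which was not higher. Over all members, 54.7% had the same sign in both comparisons.

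The difference between the diet effects without and with LPS was also tested. In limma 0 members (0.0%) passed after adjustment and 418 (3.78%) had an unadjusted p under 0.05. Cyp26b1, which degrades retinoic acid, had 0.872, 3.5 and 1.48 FPKM in PF and 9.13, 5.77 and 6.47 in EtOH and a log2 fold change of 1.54 ± 0.27, against 0.06 ± 0.27 with LPS (limma interaction adjusted p = 0.847). Without PF library 2, the highest of its group, the fit of 12 libraries called it, with 1.89 ± 0.21 and a limma adjusted p of 0.00885. Mms19, of cytosolic iron-sulfur protein assembly, had -1.38 ± 0.38 without LPS and 0.70 ± 0.38 with it (limma interaction adjusted p = 0.847). The proton pump subunit Atp6v1c2 was lower in all EtOH libraries than in PF and higher in all EtOH_LPS libraries than in PF_LPS, at -0.49 ± 0.18 and 0.45 ± 0.18 (limma interaction adjusted p = 0.847). Atp6v1c2 and Cmpk2, given below, were among 43 members without overlap in opposite directions. Without overlap in the same direction, 125 members were higher in both comparisons and 118 lower. In the saline comparison alone 6.18% of the 11044 members were higher and 7.08% lower in this way. In the LPS comparison alone 6.03% were higher and 5.46% lower. The counts shared by both were not tested against these shares.

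**Figure D3:**
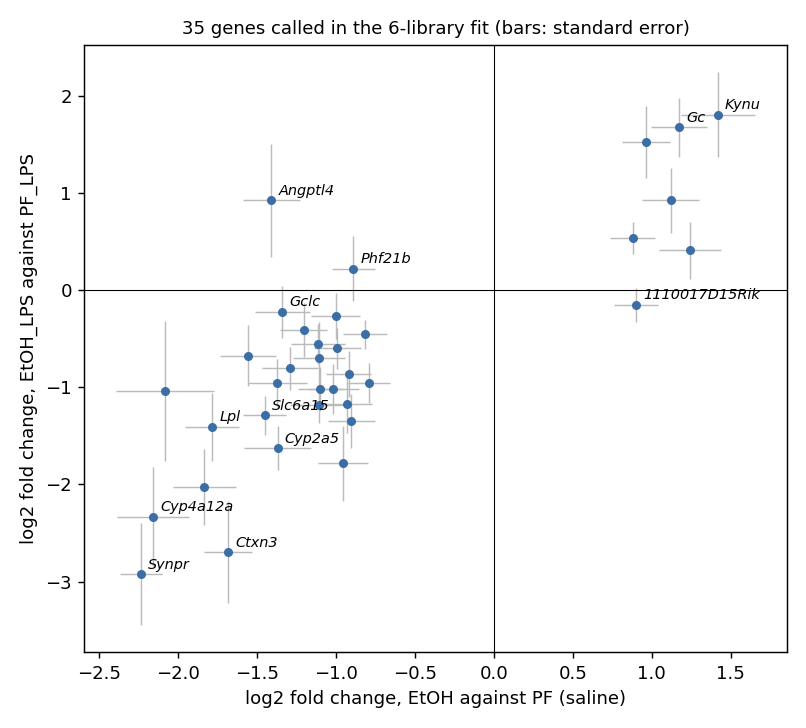
Log2 fold change of the 35 genes in the saline libraries (horizontal, fit of 6 libraries) and in the separate LPS libraries (vertical), with standard errors. Of the 28 genes left of 0, 26 are also below 0, and of the 7 right of 0, 6 are above 0. The points include the 7 lower and 2 higher genes that reached the 1 FPKM minimum only in the group where they are high.

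Androgen-regulated transcripts of the kidney formed the list with the lowest median of the 62 examined. Of 27 members, 13 (48.1%) were lower in every EtOH library than in any PF library and 1 (3.7%) higher. The shares of all members were 7.08% and 6.18%, and 19 log2 fold changes of the list were below 0. The median was -0.414, against -0.002 over all members. In limma 0 members of the list were called in either direction over 12 libraries. With an unadjusted p under 0.05, 8 were lower and 1 higher, against 2.1% and 1.47% of all members. In the LPS libraries the median was -0.408, against 0.015 over all members. Kap had 79906, 62876 and 52866 FPKM with pair-feeding and 42207, 41016 and 46567 with ethanol, with a log2 fold change of -0.57 ± 0.31 (limma adjusted p = 1). Acsm3, a medium-chain acyl-CoA synthetase, had 1942, 1326 and 959 FPKM in PF and 696, 490.1 and 627 in EtOH (log2 fold change -1.18 ± 0.37; limma adjusted p = 1). Rnf24 had 6.52, 16.6 and 7.25 FPKM in the PF libraries and 3.42, 6.21 and 3.39 in the EtOH libraries, its highest value in PF library 2. The exception without overlap was Cyp2d9, given above. Slc7a12, an amino acid transporter picked after its values were seen, had the highest fold change of all members at 1.70 ± 0.90 (limma adjusted p = 1), but its libraries overlapped, with 15.8, 9.3 and 4.05 FPKM in PF and 11.2, 77.5 and 30.5 in EtOH. Without PF library 1, in which Kap was highest, 14 members (51.9%) were lower without overlap and 3 (11.1%) higher, against 15% and 13.2% of all members in those 5 libraries, and the list median was -0.33.

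Genes of fatty acid oxidation lay lower as a list. Of 49 members, 18 (36.7%) were lower in all EtOH libraries than in any PF library and 2 (4.08%) higher. The shares of all members were 7.08% and 6.18%. In the list 41 fold changes were below 0, and the median was -0.27. In limma 0 of the list were called, and 8 had an unadjusted p under 0.05, all lower, against 2.1% of all members. With LPS the median was 0.09. Ehhadh, the peroxisomal bifunctional enzyme, had 299.9, 439.7 and 244 FPKM with pair-feeding and 177, 153 and 173 with ethanol (log2 fold change -0.93 ± 0.29; limma adjusted p = 1). Cpt1a, which admits fatty acids into mitochondria, had 112, 126 and 125 FPKM in PF and 93, 73.1 and 84 in EtOH (log2 fold change -0.54 ± 0.20; limma adjusted p = 1). Eci2 and Acot12, a peroxisomal isomerase and an acyl-CoA thioesterase, had log2 fold changes of -0.59 ± 0.27 and -0.59 ± 0.18. Pdk4, which restrains pyruvate oxidation when fat is burned, varied most, with 22.2, 14.6 and 6.1 FPKM in the PF libraries and 4.01, 5.49 and 3.78 in the EtOH libraries, and a standard error of 1.02 around a log2 fold change of -1.35. The list median was -0.18 without EtOH library 2, the library lowest for the list, with 18 members (36.7%) lower and 4 (8.16%) higher without overlap, against 9.05% and 10.7% of all members in those 5 libraries.

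Promoters of a few members of these groups are shown because they hold a short motif that receptors for steroids or fatty acids recognise as a repeat of their binding site. The search covered the 250 bases before the start in RefSeq (GRCm38.p6) for AGGTCA, a core motif of receptors such as PPAR alpha with its partner RXR, and AGAACA, a core motif of steroid receptors such as that for glucocorticoids, on both strands. Capitals mark a match. RefSeq had windows for 41 of the 49 oxidation genes and 21 of the 27 androgen-regulated genes. AGGTCA was in 17.1% of the former, 13.1% of the 8789 members with a window and 15.8% of all genes with one. AGAACA was in 14.3% of the androgen-regulated genes, 13.2% of members and 18.2% of all genes. The matches of Cpt1a and Acot12 (oxidation genes), Adh1 (androgen-regulated list) and Pzp (called in the fit of 6 libraries) follow, 5′ to 3′ on the strand of the gene.
Cpt1a, chr19:3323051-3323300, plus strand: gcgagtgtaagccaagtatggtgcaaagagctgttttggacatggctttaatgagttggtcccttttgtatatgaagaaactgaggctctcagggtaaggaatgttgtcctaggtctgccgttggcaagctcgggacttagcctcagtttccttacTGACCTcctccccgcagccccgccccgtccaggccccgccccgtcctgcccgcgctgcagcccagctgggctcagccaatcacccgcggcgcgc
Acot12, chr13:91741271-91741520, plus strand: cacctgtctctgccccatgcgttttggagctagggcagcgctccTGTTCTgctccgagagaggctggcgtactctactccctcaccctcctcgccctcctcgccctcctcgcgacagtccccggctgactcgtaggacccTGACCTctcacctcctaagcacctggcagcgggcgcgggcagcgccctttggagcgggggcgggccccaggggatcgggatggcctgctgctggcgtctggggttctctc
Adh1, chr3:138277335-138277584, plus strand: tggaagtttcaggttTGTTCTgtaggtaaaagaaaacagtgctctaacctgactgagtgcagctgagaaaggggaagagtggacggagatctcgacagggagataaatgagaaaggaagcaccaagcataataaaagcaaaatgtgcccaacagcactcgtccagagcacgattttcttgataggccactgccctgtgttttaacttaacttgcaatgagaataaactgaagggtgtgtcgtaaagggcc
Pzp, chr6:128526721-128526970, minus strand: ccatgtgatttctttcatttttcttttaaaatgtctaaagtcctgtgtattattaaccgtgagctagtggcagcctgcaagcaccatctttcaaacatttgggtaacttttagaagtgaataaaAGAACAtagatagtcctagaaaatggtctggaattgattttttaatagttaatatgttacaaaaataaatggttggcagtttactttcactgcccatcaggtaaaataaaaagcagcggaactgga
A match is a run of letters in the window, and binding was not measured. The other shares were 7.32% of the oxidation genes with AGAACA and 14.3% of the androgen-regulated genes with AGGTCA. Among the 21 genes called in the fit of 6 libraries that had a window, 0.0% held AGGTCA and 14.3% AGAACA. Each share of a list rests on 7 genes or fewer.

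The enzymes that handle ethanol itself went both ways. Among 18 members, 4 (22.2%) were higher and 6 (33.3%) lower without overlap, against 6.18% and 7.08% of all members. The list median was -0.08, and it turned positive (0.02 to 0.04) with equal total FPKM, equal protein-coding total or quantile normalization. Adh1, the main cytosolic alcohol dehydrogenase, had 252, 254 and 301 FPKM in PF and 172, 177 and 149 in EtOH, so that every EtOH library was below every PF library (log2 fold change -0.69 ± 0.18; limma adjusted p = 0.712). Cyp2e1 had 991, 1036 and 1263 FPKM with pair-feeding and 667, 529 and 797 with ethanol and was also separate and lower (log2 fold change -0.73 ± 0.22; limma adjusted p = 0.95). Aldh2, the mitochondrial aldehyde dehydrogenase, had 97.4, 129.7 and 171 FPKM in PF and 141, 119 and 107 in EtOH, and its ranges overlapped. Catalase (Cat) had 382, 365 and 396 FPKM in the PF libraries and 358, 339 and 386 in the EtOH libraries, and Acss2, which activates acetate, 87.4, 82.8 and 81.9 FPKM in PF and 74.9, 67.6 and 67.5 in EtOH. The cytosolic Aldh1a1 and Aldh1a7, near-identical copies, lay higher, with 2.75, 2.66 and 2.7 FPKM with pair-feeding and 4.47, 6.34 and 7.76 with ethanol for the first and 5, 5.21 and 6.73 FPKM in PF and 8.02, 11.8 and 14.4 in EtOH for the second. Their log2 fold changes were 0.93 ± 0.26 and 0.88 ± 0.24 (limma adjusted p = 0.909 and 0.901).

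Other detoxifying enzymes split both ways. Of 25 members of the Cyp2 and Cyp3 families, 5 (20.0%) were higher and 7 (28.0%) lower without overlap, with a median of 0.06. Over all members these shares were 6.18% and 7.08%. Cyp2d22 had 1.64, 2.29 and 2.78 FPKM in the PF libraries and 3.64, 4.14 and 4.44 in the EtOH libraries. Of 26 targets of the antioxidant regulator NRF2, 4 (15.4%) were higher and 4 (15.4%) lower without overlap and the median was -0.09. Osgin1, an oxidative stress-induced growth inhibitor, had 2.37, 1.83 and 1.82 FPKM in PF and 6.23, 8.12 and 4 in EtOH (log2 fold change 1.21 ± 0.39; limma adjusted p = 1). The quinone reductase Nqo1 had 25.1, 29.2 and 26.4 FPKM with pair-feeding and 33.6, 30.4 and 42.1 with ethanol, while heme oxygenase Hmox1 had 5.77, 7.6 and 7.65 FPKM in PF and 6.08, 6.17 and 6.56 in EtOH and overlapping ranges. The glutathione transferase Mgst1 had 77.8, 87.5 and 103 FPKM in the PF libraries and 135, 149 and 159 in the EtOH libraries, and Ugt1a10, one of several Ugt1a isoforms with shared exons, 1.48, 1.77 and 1.04 FPKM in PF and 2.56, 7.54 and 5.03 in EtOH. The ferroportin gene Slc40a1, the iron exporter, had 32.8, 27.6 and 31.6 FPKM with pair-feeding and 19.7, 21.9 and 24 with ethanol.

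Markers of the distal nephron lay higher with ethanol, by less than 1 on the log2 scale in most genes. Of 19 members of the distal convoluted tubule list, 9 (47.4%) were higher in every EtOH library than in any PF library and 0 lower. Its median was 0.34. Over all members 6.18% were higher and 7.08% lower in this way. The thick ascending limb list had 6 of 18 higher and 0 lower without overlap (33.3%; median 0.26), the principal cell list 7 of 20 (35%; median 0.29) with 1 lower, and the intercalated cell list 4 of 20 (20.0%; median 0.245) with 1 lower. In limma 0 genes of these lists were called over the 12 libraries. An unadjusted p under 0.05 and a higher level were found for 3, 2, 4 and 2, against 1.47% of all members. The LPS libraries gave medians of 0.38, 0.20, 0.46 and 0.45, against 0.015 over all members. PF library 1 was the lowest library for 3 of the 4 lists, and without it the medians were 0.28, 0.30, 0.22 and 0.19. Without PF library 3 the thick ascending limb median was 0.17. The counts of higher genes without overlap were more than 1.5 times as high when 1 library was left out for the principal cell list (13 without PF library 3) and the intercalated cell list (9 without PF library 3, 10 without EtOH library 2 and 7 without EtOH library 3), where 11.7%, 10.7% and 10.1% of all members were higher without PF library 3, EtOH library 2 and EtOH library 3.

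Individual genes showed how modest the differences were. Slc12a1, the sodium-potassium-chloride transporter of the thick ascending limb and the target of loop diuretics, had 114, 89.5 and 69.4 FPKM in PF and 129.6, 162 and 129 in EtOH (log2 fold change 0.64 ± 0.21; limma adjusted p = 1). Ptger3, a prostaglandin E receptor of that segment, had 7.62, 6.28 and 5.38 FPKM in the PF libraries and 9.11, 12.9 and 9.95 in the EtOH libraries. Umod, uromodulin, went the other way, with 655, 703 and 564 FPKM in PF and 528, 591 and 481 in EtOH and overlapping ranges. Sgk1, a kinase induced by aldosterone and glucocorticoids, had 17, 20.5 and 15.7 FPKM with pair-feeding and 28.9, 27.3 and 39.7 with ethanol. Klhl3, the adaptor that targets WNK kinases for degradation, had 3.39, 3.89 and 4.36 FPKM in PF and 5.62, 4.94 and 5.19 in EtOH. Scnn1a, the alpha subunit of the epithelial sodium channel, had 4.37, 6.94 and 5.97 FPKM in the PF libraries and 11.8, 12.2 and 7.93 in the EtOH libraries (log2 fold change 0.78 ± 0.22; limma adjusted p = 0.948). Avpr2, the vasopressin receptor of the collecting duct, had 2.43, 2.12 and 2.72 FPKM in PF and 5.24, 5.26 and 3.72 in EtOH, whereas the water channel Aqp2 had 2.54, 6.19 and 5.99 FPKM with pair-feeding and 4.09, 4.88 and 4.31 with ethanol and overlapped. Slc4a1 and Car2, the anion exchanger and carbonic anhydrase of acid-secreting cells, had 2.69, 3.65 and 6.96 FPKM in PF and 9.28, 5.76 and 8.68 in EtOH for the former and 131, 129 and 170.4 FPKM in the PF libraries and 185, 193 and 231 in the EtOH libraries for the latter.

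Aqp4, a basolateral water channel, had 4.86, 2.7 and 0.856 FPKM in PF and 5.33, 17.8 and 8.51 in EtOH, and EtOH library 2 was far above the others. Aqp4 is also higher towards the medulla. The summed level of the 20 medulla and papilla markers was 192 to 242.6 FPKM in the PF libraries and 219.4 to 264.1 in the EtOH libraries, highest in EtOH library 2. Most of that sum was Aqp1, at 111 to 144 FPKM, which is also in the proximal tubule list, so the sum says little about medulla. Slc14a2, of the same markers, was at 0.317 in EtOH library 2 and at most 0.0609 elsewhere. In EtOH library 2 the urothelial Upk1b was at 1.29 and Upk3a at 1.03, against 2.63 and 0.84 in PF library 2 and at most 0.374 and 0.094 in the other 4. Without EtOH library 2 the log2 fold change of Aqp4 was 1.18 ± 0.67, against 1.60 ± 0.64 with it.

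Podocyte markers were likewise higher in part. Of 25 members, 7 (28.0%) were higher and 1 lower without overlap, with a median of 0.18 (0.225 with LPS). Without PF library 1 the median was 0.108, with 8 higher and 2 lower, against 13.2% and 15% of all members. Without EtOH library 1 and 3 the count of higher genes was 11 and 12, against 13.7% and 10.1% of all members. Tcf21, a transcription factor of podocytes, had 2.05, 1.76 and 2.68 FPKM with pair-feeding and 3.16, 4.89 and 4.92 with ethanol, and the cell cycle inhibitor Cdkn1c 3.68, 4.54 and 3.84 FPKM in PF and 4.54, 10.3 and 6.41 in EtOH. The slit diaphragm protein Nphs1 had 3.71, 5.75 and 4.32 FPKM in the PF libraries and 6.1, 5.66 and 4.29 in the EtOH libraries and overlapped. Endothelial markers had a median of 0.08 with 1 of 19 higher and 0 lower without overlap. Kdr, the VEGF receptor, had 16.4, 17.1 and 22 FPKM in PF and 18.9, 18.4 and 22.9 in EtOH.

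**Figure D4:**
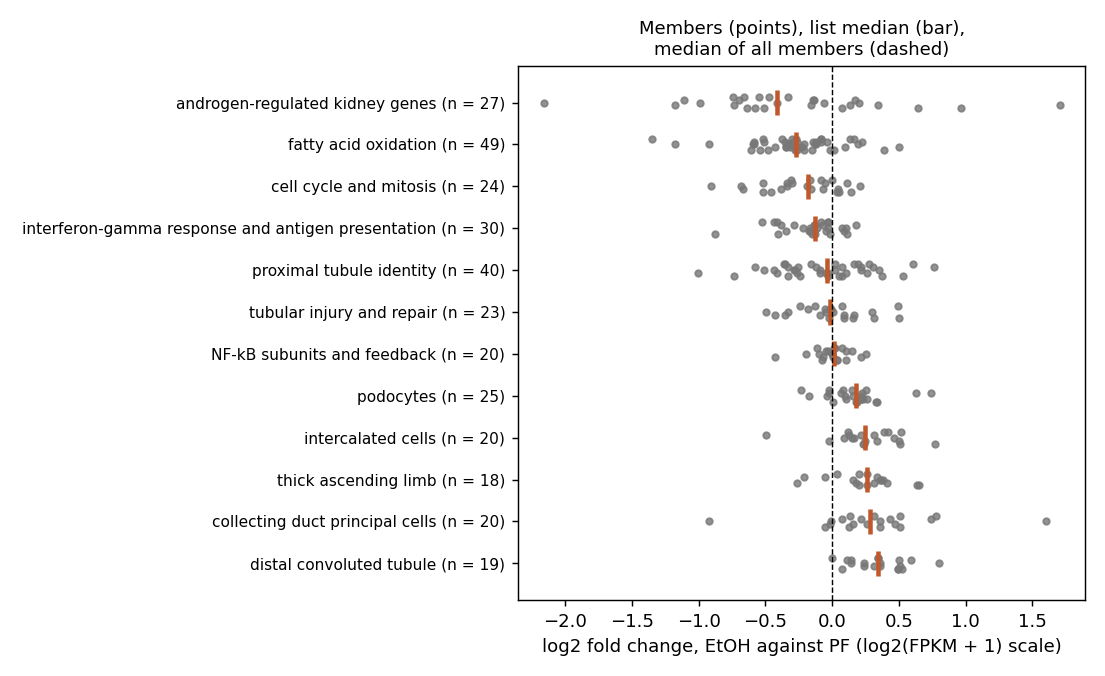
Log2 fold change (EtOH against PF) of the members of 12 gene lists, 1 point per gene, with the list median as an orange bar and the median of all members dashed. The medians run from -0.41 for androgen-regulated genes to 0.34 for the distal convoluted tubule.

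Markers of proximal tubule identity had a median near 0, but more were lower than higher without overlap. Of 40 members, 3 (7.5%) were higher and 11 (27.5%) lower without overlap, against 6.18% and 7.08% of all members. The median of -0.04 turned positive (0.03 to 0.07) under equal total FPKM, equal protein-coding total and quantile normalization. The phosphate transporter Slc34a1 had 572, 664 and 882 FPKM with pair-feeding and 821, 826 and 698 with ethanol and the glucose transporter Slc5a2 50.7, 65.6 and 114 FPKM in PF and 116, 94.1 and 106 in EtOH, both with overlapping ranges. Hao2, a peroxisomal hydroxy acid oxidase, had 195, 164 and 166 FPKM in the PF libraries and 238, 270.5 and 405 in the EtOH libraries (log2 fold change 0.76 ± 0.24; limma adjusted p = 1). Ace, angiotensin-converting enzyme of the brush border, had 53.5, 53.1 and 46.3 FPKM in PF and 43.8, 39.9 and 29.9 in EtOH. Pck1, the gluconeogenic enzyme, had 605, 955 and 1192 FPKM with pair-feeding and 1420.4, 1445 and 1189.8 with ethanol, with PF library 1 the lowest. Of 38 organic ion transporters, 3 (7.89%) were higher and 7 (18.4%) lower without overlap, against the same 6.18% and 7.08%. Slc22a28 and Slc17a3, transporters of organic anions, had 108, 80.2 and 88.5 FPKM in PF and 54.9, 46.1 and 69.5 in EtOH and 401, 361 and 384 FPKM in the PF libraries and 282, 233 and 337 in the EtOH libraries, respectively, while Slc16a14, of the monocarboxylate transporter family, had 18.3, 25 and 38.5 FPKM in PF and 40.2, 53.8 and 41 in EtOH.

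Markers of tubular injury had a median near 0. Of 23 members, 1 was higher and 2 lower without overlap, with a median of -0.01. Havcr1 (KIM-1) was at 1.92, 0.897 and 1.02 FPKM in the PF libraries and 0.584, 0.45 and 0.471 in the EtOH libraries. Lcn2 (NGAL) was at 0.294, 0.283 and 0.75 in the PF libraries and 0.12, 0.385 and 0.353 in the EtOH libraries. Havcr1 reached 1 FPKM in 2 libraries and Lcn2 in none, so neither is among the members. Spp1, osteopontin, was separate and higher, with 231, 269.9 and 296 FPKM with pair-feeding and 322, 369 and 444 with ethanol (log2 fold change 0.50 ± 0.23; limma adjusted p = 1). Of 31 matrix genes, 2 were higher and 3 lower without overlap. Among them Col15a1, a basement membrane collagen, had 4.97, 6.05 and 8.42 FPKM in PF and 1.82, 2.9 and 2.94 in EtOH (log2 fold change -1.06 ± 0.35; limma adjusted p = 1).

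The lists of NF-kB subunits and feedback (20 members), LPS recognition (17), acute phase (7) and complement (17) had medians of 0.01, 0.04, 0.07 and 0.09, with at most 1 gene without overlap in either direction. Type I interferon response genes (27) had a median of -0.09, with 2 higher and 2 lower without overlap, and the interferon-gamma and antigen presentation list (30) -0.13, with 25 fold changes below 0 but 0 higher and 2 lower without overlap. That list depended on single libraries. Without PF library 1 its median was -0.275 with 9 lower, without PF library 3 it was -0.057 with 3 lower, and without EtOH library 3 11 were lower, where 15%, 10.9% and 16.0% of all members were. Leaving out EtOH library 2 or PF library 2 gave 4 (13.3%) lower each, against 9.05% and 10.1% of all members. Tgtp1, an interferon-induced GTPase with a near-identical copy, had 6.22, 5.76 and 4.87 FPKM in the PF libraries and 3.34, 1.11 and 4.03 in the EtOH libraries, and the guanylate-binding protein Gbp5 1.22, 1.11 and 1.22 FPKM in PF and 0.441, 0.712 and 0.901 in EtOH. Gbp5 had reached the 1 FPKM minimum in PF only. Without it 1 of 29 members (3.45%) was lower without overlap and the list median was -0.126. Of all members without such genes 6.88% were lower. Cmpk2, a mitochondrial kinase induced by interferon, had 4.1, 3.52 and 4.44 FPKM with pair-feeding and 5.16, 4.65 and 6.54 with ethanol, but with LPS all EtOH_LPS libraries were below PF_LPS (log2 fold change -0.26 ± 0.16; limma interaction adjusted p = 0.988). Cxcl10 and Ifit1 overlapped, with 2.01, 1.53 and 3.58 FPKM in PF and 0.814, 1.67 and 2.07 in EtOH for the chemokine and 1.13, 1.19 and 1.57 FPKM in the PF libraries and 1.4, 1.81 and 1.55 in the EtOH libraries for the antiviral gene. Il34, a ligand of the macrophage colony-stimulating factor receptor made by tubules, had 3.26, 6.92 and 7.78 FPKM in PF and 2.04, 2.22 and 1.34 in EtOH (log2 fold change -1.23 ± 0.41; limma adjusted p = 1). Macrophage and dendritic cell markers (18) had a median of -0.03, with 0 higher and 1 lower without overlap.

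Cell cycle genes lay lower, most of them at low levels. Of 24 members, 9 (37.5%) were lower and 0 higher without overlap, against 7.08% and 6.18% of all members. The median was -0.18 (-0.18 with LPS). In limma 0 were called, while 4 had an unadjusted p under 0.05, all lower, against 2.1% of all members. Of the listed genes, Cdk1 and Prc1 had reached the 1 FPKM minimum in the PF group only. Without both, 7 of 22 (31.8%) were lower and the median was -0.164. Of all members without such genes 6.88% were lower. Top2a, the topoisomerase of dividing cells, had 2.49, 1.68 and 1.89 FPKM with pair-feeding and 0.735, 0.886 and 1.07 with ethanol, and the replication helicase subunit Mcm7 8.89, 7.6 and 8.3 FPKM in PF and 6.8, 4.97 and 4.81 in EtOH. Without EtOH library 3 the list median was -0.09.

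Amino acid genes other than Slc6a15 went both ways. Of 55 members of the amino acid and one-carbon list, 9 (16.4%) were higher and 3 (5.45%) lower without overlap (median 0.07, and 0.315 with LPS). Over all members these shares were 6.18% and 7.08%. Phgdh, the entry enzyme of serine synthesis, had 1.13, 1.96 and 1.43 FPKM in the PF libraries and 5.22, 2.91 and 4.28 in the EtOH libraries (log2 fold change 1.02 ± 0.40; limma adjusted p = 1). Psat1, the next enzyme of that route, had 9.68, 11.7 and 11.7 FPKM in PF and 18.9, 13.6 and 23 in EtOH. Bhmt, which remethylates homocysteine from betaine, had 1.32, 0.704 and 1.33 FPKM with pair-feeding and 1.89, 2.59 and 3.8 with ethanol. Slc1a4, a transporter of alanine and serine, had 6.16, 7.77 and 6.05 FPKM in PF and 4.18, 4.91 and 3.68 in EtOH. Of 28 amino acid transporters, 5 (17.9%) were higher and 4 (14.3%) lower without overlap.

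Lipid synthesis and transport were mixed. Apob, the structural protein of triglyceride-rich lipoproteins, had 85.2, 64.5 and 76.8 FPKM in the PF libraries and 92.4, 129 and 141 in the EtOH libraries, and the desaturase Scd2 5.52, 6.54 and 6.76 FPKM in PF and 10.8, 9.23 and 13.5 in EtOH. Idi1 of cholesterol synthesis had 80.7, 49 and 46.6 FPKM with pair-feeding and 28.7, 32.2 and 36.9 with ethanol. The fatty acid-binding protein Fabp4 had 33.7, 73.5 and 42.4 FPKM in PF and 22.7, 30.7 and 27.6 in EtOH, highest in PF library 2, where the adipose markers Adipoq and Cfd also peaked, and its log2 fold change went from -0.79 ± 0.33 to -0.48 ± 0.33 without that library. The part of fat tissue in that value was not tested otherwise. The fatty acid synthesis list (20) had a median of 0.115 and the cholesterol list (32) 0.02.

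The clock differed between libraries of the same diet. Arntl, the core activator, had 5.87, 0.636 and 0.621 FPKM in the PF libraries and 2.66, 0.751 and 4.31 in the EtOH libraries, and Dbp, its output, 0.775, 10.7 and 13.3 FPKM in PF and 7.4, 9.69 and 2.67 in EtOH. The libraries high in one were low in the other within both diets, and PF library 1 was the extreme. Per1 had 0.411, 4.94 and 2.03 FPKM with pair-feeding and 1.12, 1.7 and 1.41 with ethanol. Of 19 clock genes, 0 were higher and 1 lower without overlap, with a median of -0.039. Without PF library 1 they were 2 and 7, against 13.2% and 15% of all members, with a median of -0.243. Without EtOH library 2 the median was -0.18. Without PF library 2, PF library 3 or EtOH library 3 the median was above 0, at 0.037, 0.068 and 0.097. Glucocorticoid targets (18) had a median of 0.0, with 29.2, 22.5 and 39.4 FPKM in PF and 24.5, 34.9 and 27.2 in EtOH for Fkbp5. Hsd11b1, which regenerates active glucocorticoid, had 104, 86.3 and 77.8 FPKM in the PF libraries and 42.3, 48.6 and 53.5 in the EtOH libraries (log2 fold change -0.88 ± 0.29; limma adjusted p = 1), and with LPS -1.83 ± 0.29 (limma adjusted p = 0.0495). Ren1, renin, had 16, 54.9 and 67.3 FPKM in PF and 71.7, 63.5 and 64.9 in EtOH, the low value again being PF library 1.

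Respiratory chain subunits (58) had a median of -0.10, with 0 higher and 2 lower without overlap, and it moved to 0.004, 0.018 and 0.039 with equal total FPKM, equal protein-coding total and quantile normalization. Tricarboxylic acid cycle genes (28) had -0.08, the unfolded protein response (25) 0.05, the integrated stress response (23) 0.004 and heat shock chaperones (27) -0.08. Hsp90ab1, the constitutive HSP90, had 528, 558 and 684 FPKM with pair-feeding and 427, 268 and 518 with ethanol, lowest in EtOH library 2. The autophagy receptor Nbr1 had 152, 126 and 145 FPKM in PF and 94.5, 74.5 and 110.4 in EtOH.

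Prom1, a membrane glycoprotein of cell protrusions, had 42.2, 39.97 and 31.8 FPKM in the PF libraries and 60.8, 63.4 and 100.5 in the EtOH libraries (log2 fold change 0.93 ± 0.29; limma adjusted p = 1). Epb41l3, a membrane skeleton protein, had 8.01, 7.91 and 11.2 FPKM in PF and 16.8, 16.7 and 20.6 in EtOH (log2 fold change 0.93 ± 0.20; limma adjusted p = 0.346), and was higher without overlap with LPS as well. Prss36, a serine protease, had 2.14, 1.68 and 2.16 FPKM with pair-feeding and 3.26, 32.9 and 3.33 with ethanol, and without EtOH library 2 its log2 fold change went from 1.52 ± 0.81 to 0.53 ± 0.53. Of the 12 highest and 12 lowest genes without overlap by fold change, 12 and 9 had the same sign in the LPS libraries, 6 and 7 of them without overlap. Of all members 54.7% had the same sign, and with LPS 6.03% were higher and 5.46% lower without overlap. Apoh, a plasma glycoprotein that the proximal tubule also expresses, had 11.1, 8.66 and 9.4 FPKM in PF and 5.63, 4.05 and 5.13 in EtOH and a similar difference in both comparisons (-0.85 ± 0.20 and -0.85 ± 0.20).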

How the data were processed

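RNA of kidney cortex was measured in 12 libraries, and the 3 EtOH and 3 PF libraries were compared. Per the labels' protocols, the mirVana kit served for RNA and the TruSeq Stranded Total RNA kit with Ribo-Zero Gold for libraries. The authors deposited 1 table of FPKM values for 47719 genes. Per the submitters' processing notes they used TopHat2 2.0.4, Cuffnorm, Cuffdiff 2.1.1, Cufflinks 2.2.1 and FastQC 0.10.1 on build mm10. How strand was set and which annotation was used is not given in the sources used here. Overlapping antisense genes may therefore share fragments. Fragment totals were not used here, and FPKM take no count model.

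Names, biotypes and coordinates are those of GENCODE M21 (GRCm38), which 47219 genes matched by identifier and 500 did not. The 14109 genes that reached 1 FPKM in 3 or more of the 12 libraries were fitted in limma 3.58.1 (R 4.3.3) as log2(FPKM + 1), with 1 mean per group, a robust prior and an intensity trend. All tests are two-sided, with Benjamini-Hochberg adjustment over those genes and a threshold of 0.05. The fit of the 6 saline libraries was adjusted over the 11044 members. Errors beside FPKM fold changes are standard errors. The procedure was tested on simulated data. Alternatives were pseudocounts, filters, scalings, subsets of libraries or genes, the replicate block and leaving out each library. The alternatives to the fit of 6 libraries over members, the block with only the 6 saline libraries, the counts without overlap of lists without single libraries and the counts without members that reached the minimum in 1 group only were chosen after seeing the data.

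The members and the 62 gene lists (1532 genes, of which 1158 are members) were chosen with earlier results of these data known. Genes were named by rule: those past the threshold, the 12 highest and 12 lowest fold changes without overlap at a mean of at least 5 FPKM, a panel of 30, and up to 4 members of each list with an unadjusted p under 0.05. The 35 genes of the fit of 6 libraries were named in addition. Some genes that the rule named are not reported here. Lists are described by counts and medians beside those of all members, with no set test.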

Additional observations from a re-analysis of the deposited data

Results flagged for a closer look

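Outside the protein-coding genes, 3 of the 14109 genes tested also had a limma adjusted p under 0.05 (4 in all, 0.0284%), 2 of them listed higher with ethanol. Each reached the 1 FPKM minimum in the 3 libraries of 1 diet group and in 0 of the other 9, so a gene of this kind had to differ to be tested, and the calls are given only as values. Gm24337, a small nucleolar RNA gene on chromosome 4, was listed at 0 in every PF library and at 22.46, 29.25 and 7.453 FPKM in the EtOH libraries, a mean of 19.7. Mir1966, a microRNA gene on chromosome 8, was listed at 0 in every PF library and at 13.26, 17.35 and 13.26 FPKM in the EtOH libraries, a mean of 14.6. The third, the ribosomal RNA gene Gm22586, was at 7.832, 7.934 and 6.533 FPKM in PF and listed at 0 in EtOH. Multiplied by the relative depth of its library, each nonzero value of Mir1966 came to between 12.3 and 12.5 and each of Gm22586 to between 7.83 and 7.84. For Gm24337 the products were 20.9, 21.1 and 7.02. All 3 were at the same level with both diets in the LPS libraries on the fitted scale, with a log2 fold change of 0.00.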

How the results depend on the processing

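Of 132 genes followed over 2748 alternative values, 125 kept their direction throughout, and 15 values lost and 47 gained a call. For genes whose PF and EtOH libraries did not overlap, leaving out a library could not turn the direction. Members called higher in limma were 0 over all 12 libraries, 0 to 1 when 1 library was left out and 7 in the fit of members in the 6 saline libraries. Members called lower were 1, against 2 with a pseudocount of 0.1, 8 with only the 6 saline libraries and 28 with only the members in them. They were 0 with a pseudocount of 0.01, with no filter on low values or a filter at 5 FPKM, with equal protein-coding total, with median-ratio size factors, with only protein-coding genes and without trend and robust prior, and 0 to 1 when 1 library was left out. The unadjusted counts ranged from 102 to 429 higher and 99 to 477 lower.

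In the fit of 6 libraries, called higher and lower were 7 and 28, and 0 to 19 and 4 to 37 when 1 library was left out. They were 1 and 5 with equal total FPKM, 0 and 6 with equal protein-coding total, 2 and 14 with quantile normalization and 3 and 20 with median-ratio size factors. Members without overlap numbered 1334 higher and 284 lower with equal total FPKM, and 1539 and 396 with equal protein-coding total. Deviations of same-numbered libraries from their group means correlated at -0.252, 0.155 and -0.181, and those of the other pairs at -0.242 to 0.302. Such deviations sum to 0 within a group, so these values cannot decide whether the replicate numbers pair the libraries. With the replicate block 0 members were called lower over 12 libraries, 4 over the 6 saline libraries and 41 in all in the members' fit.

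Direction turned for 7 genes, none of them called. With equal total FPKM, equal protein-coding total and quantile normalization Aldh2 was at 0.011, 0.025 and 0.011 and Cat at 0.021, 0.035 and 0.077. With the first and second of these Aqp2 was at 0.020 and 0.040 and Fkbp5 at 0.046 and 0.061. When 1 library was left out the ranges were -0.291 to 0.111 for Aldh2, -0.388 to 0.124 for Aqp2, -0.821 to 0.216 for Per1, -0.903 to 0.601 for Dbp, -0.057 to 0.992 for Arntl and -0.241 to 0.150 for Fkbp5. Of 57 list medians, 15, 16 and 7 took the other sign under these 3 scalings, most of them from values within the spread between libraries. Of the medians larger than that spread, ethanol metabolism (0.016, 0.030 and 0.041) and proximal tubule identity (0.059, 0.074 and 0.032) turned under all 3, the tricarboxylic acid cycle under the first and second (0.020 and 0.035) and autophagy under the second (0.003). The cause was not tested.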
